A study of Mus musculus with 10 samples.

Results

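Potassium channel genes were taken as every gene name in the count tables that starts with Kcn followed by a lower-case letter, as in Kcna1, which gave 98 of 24391 gene names. They were grouped by the kind of channel into 40 pore-forming subunits of voltage-gated channels, 13 auxiliary subunits of those channels, 15 inward rectifiers and 14 two-pore channels. A further 12 belong to the gene families that hold the calcium- or sodium-activated channels, and 4 are noncoding transcripts that carry the name of a channel gene. No expression value entered this choice by name, but the members and classes were chosen with earlier results of these data known.

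RNA was sequenced from the bilateral whole hippocampus of 10 male mice (strain written C56BL/6J in the study's methods) aged 10 to 14 weeks, with 1 library per mouse. The 4 SAH mice (numbered 1 to 4) had a subarachnoid hemorrhage, made by a filament that was passed up the artery until it pierced the circle of Willis, and were examined on day 4. The 3 Sham mice (5 to 7) had the same operation with no piercing, and the 3 Naive mice (8 to 10) had no operation. The operation was done under isoflurane anesthesia, and the study names no transgene and no other drug treatment. The main comparison set SAH against a pooled control of the 6 Sham and Naive mice, and further comparisons took each group alone. Induction was judged by the drop in blood flow and done on 1 side, while the hippocampi of both sides were pooled, so the sides cannot be told apart. Libraries held between 19743388 and 27254655 counts. All 9 markers of hippocampal neurons were measured, with summed levels of 936.2 to 949.3 CPM (counts normalised to equal library sizes) in SAH and 852 to 968.2 CPM in control, against 88.58 to 139.8 CPM over all mice for 5 markers of the neighboring thalamus.

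Potassium channels let potassium flow out of the cell along its gradient and thereby set the resting potential, end the action potential and limit repetitive firing. Voltage-gated channels are built of 4 pore-forming subunits and carry cytoplasmic or membrane-bound auxiliary subunits. Inward rectifiers and two-pore channels hold the resting potential, and in glia the inward rectifiers also take up the potassium that firing neurons release. Calcium-activated channels open after calcium entry and produce the afterhyperpolarization of hippocampal pyramidal cells.

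What the pore-forming genes share is the selectivity filter, the narrow part of the pore that admits potassium, whose signature ends in the codons of glycine, an aromatic residue or leucine, and glycine. Read from the longest coding transcript of each gene, the signature (codons of serine, threonine or valine, then any residue, then that ending) was found in 40 of 40 voltage-gated pore genes, 15 of 15 inward rectifiers and 14 of 14 two-pore genes. It was found at least 2 times in 14 of 14 two-pore genes, whose subunits each carry 2 pore domains. It was also found at least 2 times in 3 voltage-gated pore genes and 1 calcium- or sodium-activated gene, so a repeat is not particular to two-pore genes. The signature was found in 0 of 13 auxiliary genes. Of the 12 calcium- or sodium-activated genes, 8 held it, and the 4 without it are Kcnmb1 to Kcnmb4, auxiliary subunits of the BK channel. The 30 bases around the filter are shown for the genes on which the results turn and for a two-pore and a calcium-activated gene, from the mm9 genome (NCBIM37), with the codons of glycine, tyrosine and glycine in capitals. They lie in coding exons at chr15:34769364-34769393 (Kcns2, plus strand), chr8:122149798-122149827 (Kcng4, minus), chr1:89285584-89285613 (Kcnj13, minus) and chr14:24347623-24347652 (Kcnma1, minus). Those of Kcnk1 are parted by an intron and lie on chromosome 8 between 128519705 and 128548931 (plus).
Kcns2: accacagttGGGTACGGAgatgtggtccca
Kcng4: acgaccgtgGGCTATGGGgacatggtccct
Kcnj13: cttacaattGGTTATGGTaccatgtttccc
Kcnk1: tccaccacaGGCTATGGCcacacggtgccc
Kcnma1: tctacagtgGGTTATGGGgacgtttatgca
Kcns2 and Kcng4 encode modifier subunits, which form no channel of their own and join Kv2 subunits. Over these 30 bases Kcns2 and Kcng4 were identical to each other at 21, and Kcns2 was identical to the genes of the other classes shown at 16 (Kcnj13), 16 (Kcnk1) and 18 (Kcnma1). Kcng4 was identical to the same genes at 17, 20 and 19, so that its match to Kcns2 was close to that to the two-pore gene.

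Of the 98 genes, 85 passed the filter on low counts and were tested among 14993 genes, and 13 did not. Kcnmb3, Kcnj1 and Kcnk16 had no count in any of the 10 libraries, so that each library allows at most 3 counts. Kcna7, Kcna10, Kcnv2, Kcne1, Kcnk15 and Kcnk18 had at most 1 count in any mouse. Kcnj15 reached 3 counts, Kcnk7 and Kcnmb4os1 reached 4, and Kcnn4, a calcium-activated channel of immune cells, reached 10 in its highest mouse.

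The library of SAH mouse 3 stood apart. In 15 of the 85 tested genes (17.6%) its level lay beyond those of the other 9 mice by at least 0.2 on the log2 scale, and among all tested genes this held for 16.9%. In any of the other mice it held for at most 3.53% of the tested potassium channel genes. SAH mouse 3 was highest in 6 genes (Kcna5, Kcng3, Kcnip4, Kcnj13, Kcnk6 and Kcnq3) and lowest in 9 (Kcna4, Kcna6, Kcnf1, Kcng1, Kcnj9, Kcnk5, Kcnk13, Kcnmb1 and Kcnv1). Without this mouse the log2 fold change of SAH against control moved from 0.16 to -0.061 in Kcng3, from -0.19 to -0.058 in Kcng1, from -0.39 to -0.21 in Kcnk5 and from -0.10 to 0.017 in Kcnv1, and the values of the other 11 genes without it are given where they are described.

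Levels of different genes were compared in TPM, the counts divided by the exon length of each gene and scaled to a common sum. Of the 98 genes, 51 had a mean above 10 TPM over the 10 mice, 10 had a mean above 100 TPM and 20 had a mean under 1 TPM. The highest level belonged to Kcnab2, which encodes a cytoplasmic subunit of Kv1 channels, at 563 to 672 TPM. Among the auxiliary genes it was followed by Kcnip2, a calcium-binding subunit of Kv4 channels, at 196 to 230 TPM and by Kcnab1 at 146 to 175 TPM, and these 3 genes did not overlap in any mouse. Within the inward rectifiers the 4 highest genes accounted for 80.3% of the summed TPM of the class. They were Kcnj10 (Kir4.1, the main potassium channel of astrocytes) at 115 to 144 TPM, Kcnj3 at 112 to 126 TPM, Kcnj4 at 90.7 to 114 TPM and Kcnj9 at 50.8 to 114 TPM, and the ranges of neighbors in this order overlapped. Kcnk1 was the highest two-pore gene at 105 to 127 TPM, above Kcnk2, a channel opened by membrane stretch, at 32 to 43.7 TPM. The BK channel was represented by its pore gene Kcnma1 at 49.1 to 57.2 TPM and by its neuronal auxiliary subunit Kcnmb4 at 121 to 135 TPM. The small-conductance channel Kcnn2, which contributes to the afterhyperpolarization, had 77.7 to 102 TPM.

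**Figure D1:**
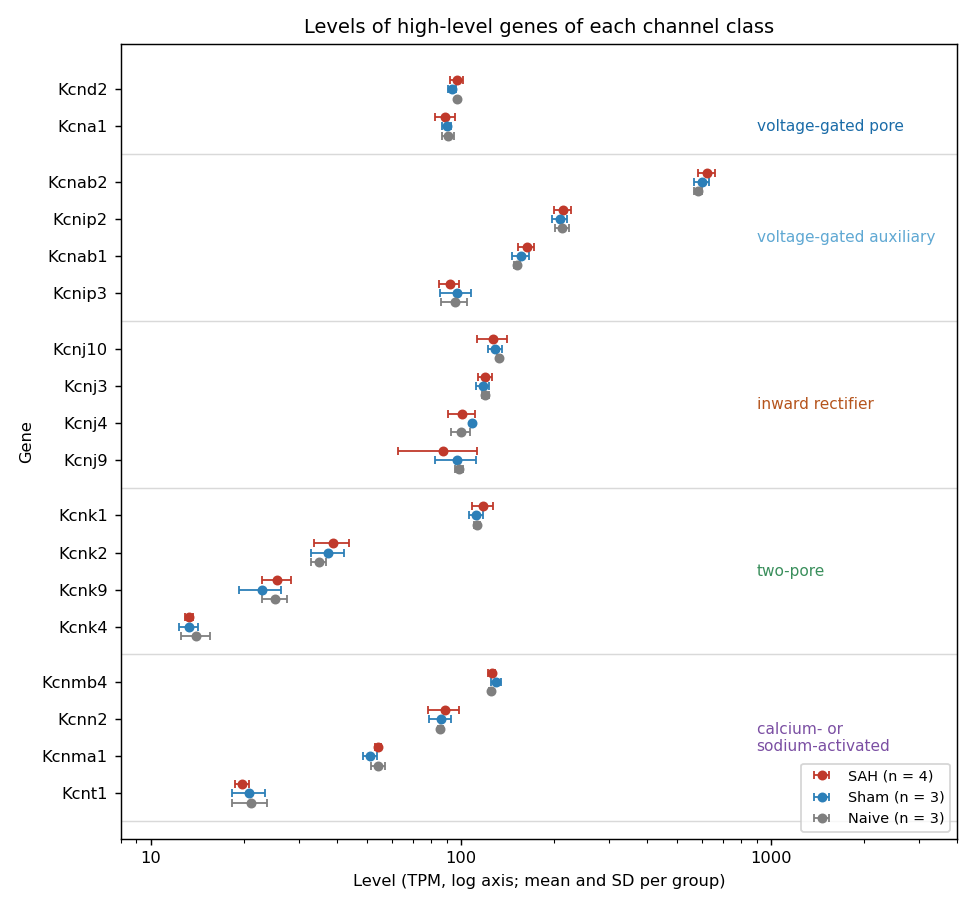
Mean level and SD in each group (TPM, log axis) of genes among the 4 of highest mean level in each class, with SAH in red (n = 4), Sham in blue (n = 3) and Naive in gray (n = 3). The group means of each gene lie close together over a range of levels from Kcnk4 at 13.5 TPM to Kcnab2 at 603 TPM.

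The summed level of the potassium channel genes was 3767 to 3917 TPM in SAH, 3800 to 3811 TPM in Sham and 3812 to 3851 TPM in Naive mice. The SAH range took in all Sham and Naive mice, and the Sham mice lay just below the Naive mice. By class, voltage-gated pore genes summed to 1468 ± 27.9 TPM (SD, n = 4) in SAH and 1488 ± 51.2 TPM (SD, n = 6) in control. Inward rectifiers summed to 548.7 ± 44.6 TPM in SAH and 560.6 ± 12.1 TPM in control, and two-pore genes to 234.2 ± 6.7 TPM and 227.8 ± 6.54 TPM. Calcium- or sodium-activated genes summed to 338.1 ± 10.9 TPM and 337.8 ± 4.92 TPM. In these 4 classes the difference was smaller than the SD of either group. Auxiliary genes of voltage-gated channels summed to 1242 ± 65.5 TPM in SAH and 1194 ± 35.8 TPM in control, a difference above the SD of control and below that of SAH, with ranges of 1175 to 1330 TPM and 1152 to 1247 TPM that overlapped. In bulk tissue, fewer cells of a type and less RNA per cell cannot be told apart.

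The first comparison asked which of these genes differ on day 4 between SAH and control hippocampus. By edgeR's quasi-likelihood test with an adjusted p under 0.10, 1 of 85 genes was higher, Kcns2, and 1 of 85 was lower, Kcng4. That is 1.18% in each direction, where 3.13% of all tested genes were higher and 1.54% were lower. At an unadjusted p under 0.05 there were 11 of 85 (12.9%), against 17.0% of all genes. DESeq2 called Kcns2, Kcnq3 and Kcng4, 3 of the 86 genes for which it gave an adjusted p (3.49%), against 6.42% of all genes. Groups that did not overlap were found in 2 genes with all 4 SAH mice above all 6 control mice (2.35%, against 2.83% of all genes) and in 1 gene with all SAH mice below (1.18%, against 2.37%). The median log2 fold change of the tested members was 0.0081 (0.00096 without SAH mouse 3) and that of all tested genes was -0.0024, and the median size of the change, regardless of sign, was 0.081 in both. Each of these shares was below that of all genes, but most rest on 1 to 3 genes, too few to read as a trait of the members.

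The precision of these comparisons can be read from the 95% intervals of the log2 fold change. In 64 of 85 genes (75.3%) the whole interval lay within 0.5 of 0, as it did in 77.6% of all tested genes. Without SAH mouse 3 this held for 65 of the 85 genes and 78.5% of all genes. A p above the threshold does not show that a gene did not differ, and in the remaining genes the interval also held changes larger than 0.5.

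**Figure D2:**
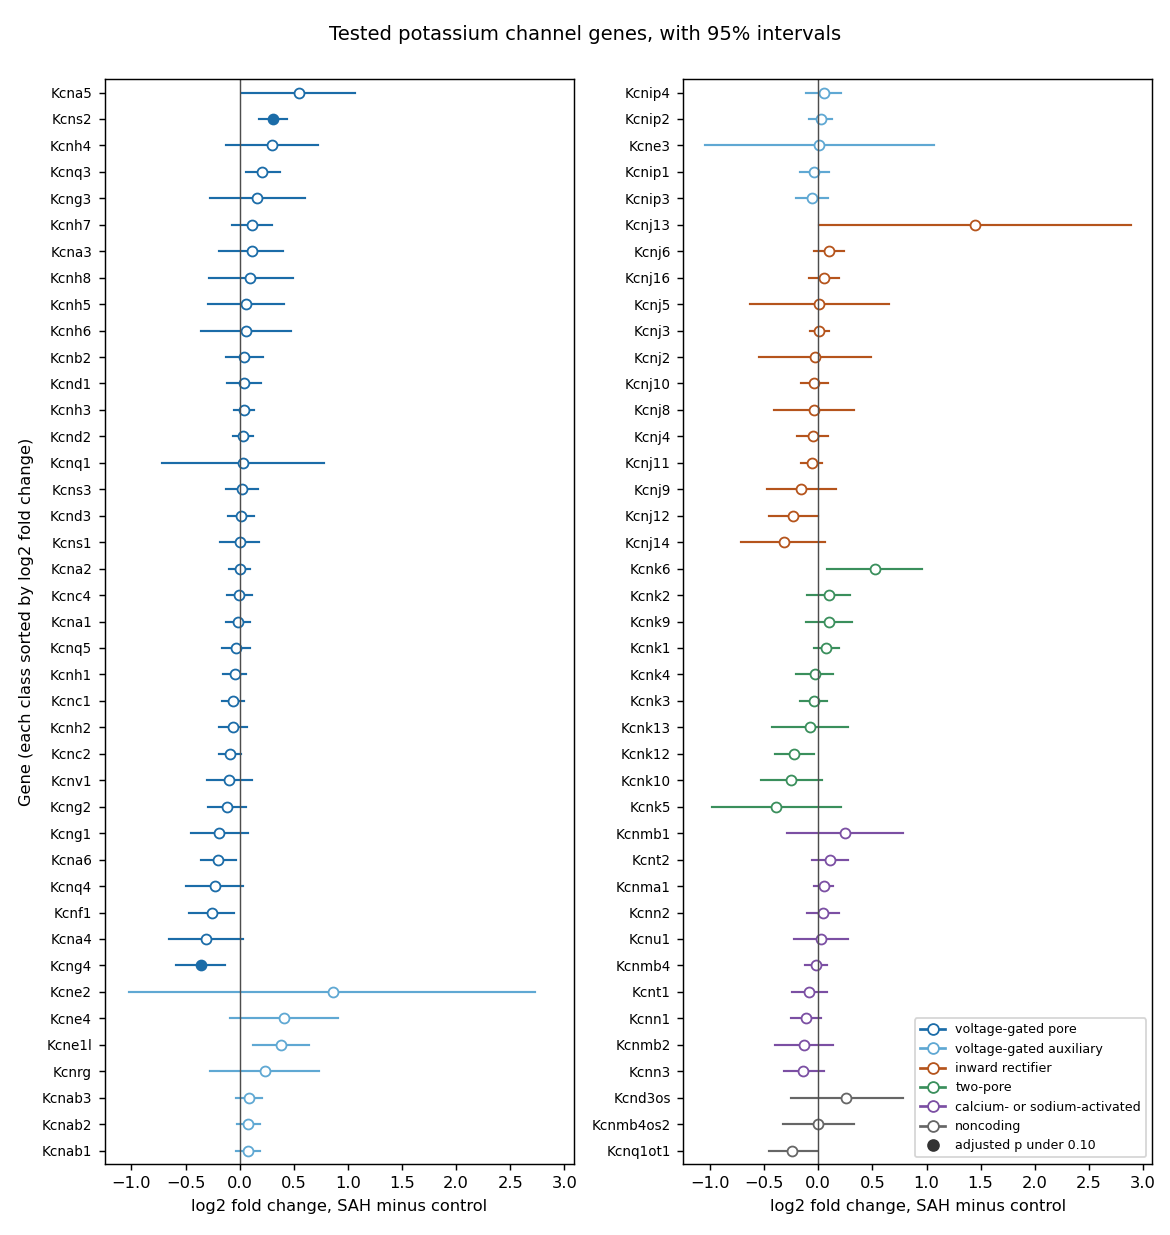
Log2 fold change of SAH against control (x axis, 4 against 6 mice) with its 95% interval for most tested genes, colored by class and sorted within each class, with filled circles for an adjusted p under 0.10 by edgeR. Kcns2 at 0.31 and Kcng4 at -0.36 are filled, and Kcnj13 and Kcne2 have the widest intervals.

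Among voltage-gated pore genes, 37 of 40 were tested, with 1 higher, 1 lower and a median log2 fold change of 0.0033 (-0.018 without SAH mouse 3). Kcns2 (chromosome 15, 34767110 to 34773162 in mm9, plus strand) encodes Kv9.2, a modifier of Kv2 channels. It had 45.3, 42.4, 44.3 and 51.8 CPM in SAH mice 1 to 4, 37.9, 38.1 and 37.5 CPM in Sham mice 5 to 7, and 34.4, 35.8 and 38.6 CPM in Naive mice 8 to 10. Every SAH mouse was above every control mouse, and the Sham and Naive mice overlapped. Kcns2 rose by 0.31 in log2 units (standard error 0.059, 95% interval 0.18 to 0.44, adjusted p = 0.0125 by edgeR). With each of the 10 mice left out in turn the change lay between 0.25 and 0.35 and passed the threshold 10 times of 10, and without SAH mouse 3 it was 0.33 (adjusted p = 0.00867).

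Kcng4 (chromosome 8, 122147754 to 122159580 in mm9, minus strand) encodes Kv6.4, another modifier. Its levels were 7.35, 8.02, 6.92 and 7.23 CPM in SAH, 10.2, 8.68 and 11.8 CPM in Sham, and 8.27, 9.26 and 8.87 CPM in Naive mice. Every SAH mouse was below every control mouse, by a narrow margin between SAH mouse 2 and Naive mouse 8. Kcng4 fell by 0.36 in log2 units (standard error 0.10, 95% interval -0.59 to -0.14, adjusted p = 0.0891 by edgeR). This call passed the threshold 2 times of 10 when a mouse was left out (without SAH mouse 2 and without Naive mouse 8), and the change stayed between -0.41 and -0.29. Without SAH mouse 3 it was -0.33 with an adjusted p of 0.171, and with library size alone as the normalization the adjusted p was 0.103.

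Kcnb2, a Kv2 subunit that modifiers join, had 17.3, 14, 16.7 and 13.4 CPM in SAH, 15.3, 13.4 and 15.2 CPM in Sham, and 14.5, 14.8 and 15.7 CPM in Naive mice. The groups overlapped, with a log2 fold change of 0.044 (95% interval -0.13 to 0.22). The modifier genes (Kcnf, Kcng, Kcns and Kcnv) were put together as a set after their values were seen, so their calls cannot be read as a trait of the set. They numbered 10, of which 9 were tested, with 1 higher (3.13% of all tested genes were) and 1 lower (1.54%). Their median log2 fold change was -0.10, or -0.061 without SAH mouse 3. Next to Kcns2, the other Kcns genes (Kcns1 and Kcns3) lay between 0.0022 and 0.017.

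**Figure D3:**
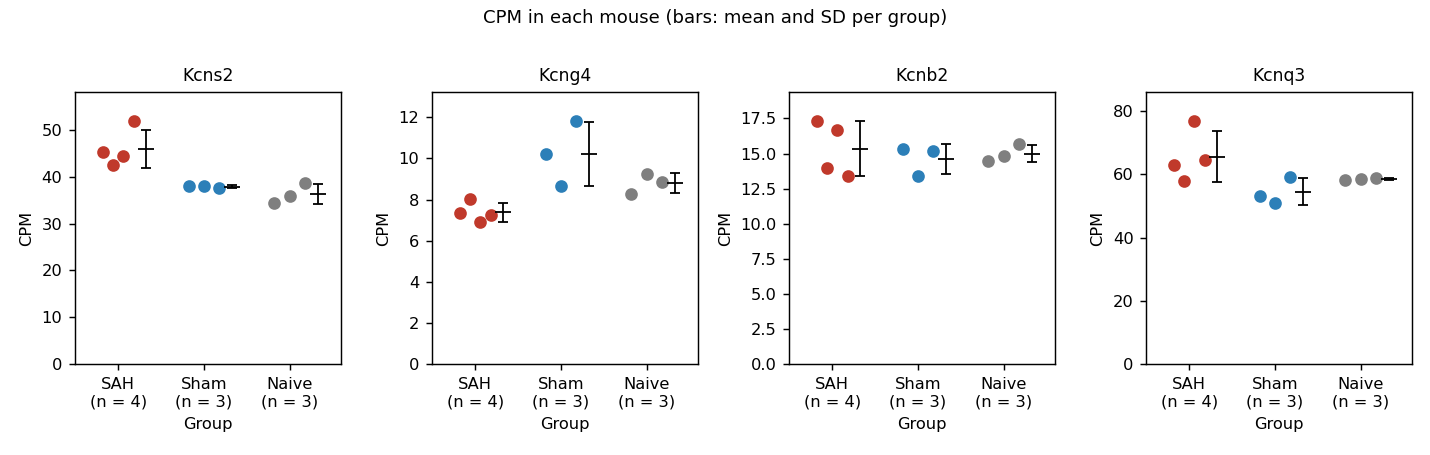
CPM in each mouse (points) with the mean and SD of each group (bars) for Kcns2, Kcng4, Kcnb2 and Kcnq3 in SAH (n = 4), Sham (n = 3) and Naive (n = 3) mice. The SAH points of Kcns2 lie above and those of Kcng4 below all control points, the groups of Kcnb2 overlap, and in Kcnq3 SAH mouse 3 is highest at 76.8 CPM.

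Kcnq3 encodes a subunit of the M current, which restrains repetitive firing. Kcnq3 had 63.1, 57.8, 76.8 and 64.6 CPM in SAH, 53.2, 51.0 and 59.2 CPM in Sham, and 58.3, 58.7 and 58.8 CPM in Naive mice. SAH mouse 2 lay within the control range and the other SAH mice above it. The log2 fold change of Kcnq3 was 0.21 (95% interval 0.058 to 0.37, adjusted p = 0.148 by edgeR and 0.0993 by DESeq2), and it was 0.13 (adjusted p = 0.324 by edgeR) without SAH mouse 3 and 0.27 (adjusted p = 0.0557) without SAH mouse 2.

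Kcna1 and Kcna2, the Kv1 subunits of axons, had log2 fold changes of -0.018 (95% interval -0.13 to 0.093) and 0.00037 (-0.095 to 0.10). Axonal myelin markers did change, since 7 of 7 oligodendrocyte markers were lower, with summed levels of 4672 to 5984 CPM in SAH and 6873 to 9539 CPM in control, and their part in the values of axonal channel genes was not tested. Kcnd2, the Kv4.2 subunit of the dendritic A current, had a log2 fold change of 0.029 (-0.062 to 0.12). Kcnc1 and Kcnc2, Kv3 genes that allow fast-spiking interneurons to fire at high rates, had log2 fold changes of -0.058 (-0.16 to 0.04) and -0.088 (-0.19 to 0.014). Of 6 markers of parvalbumin and other interneurons, 1 was lower, Sst at -0.27 (95% interval -0.40 to -0.14, adjusted p = 0.0333 by edgeR), and 0 were higher. Pvalb, the parvalbumin gene, had -0.046 (-0.16 to 0.063). The 6 markers summed to 796.7 to 864.4 CPM in SAH and 843.9 to 926.9 CPM in control. The part of interneurons in the values of Kcnc1 and Kcnc2 was not tested.

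In several further voltage-gated pore genes, of which 3 (Kcna4, Kcna6 and Kcnf1) were singled out after their values were seen, the difference shrank when SAH mouse 3 was left out. Kcna4, which encodes the inactivating Kv1.4 subunit, had 45.5, 33.2, 19.9 and 37.9 CPM in SAH and 37.0 to 46.7 CPM in control, so that its log2 fold change moved from -0.31 to -0.13 without that mouse. Kcna6 (Kv1.6) had 87.7, 86.7, 62.7 and 81.5 CPM in SAH and 87.0 to 95.4 CPM in control, and moved from -0.20 to -0.10. Kcnf1, a modifier, had 83.2, 92.1, 59.0 and 80.3 CPM in SAH and 84.0 to 104 CPM in control, and moved from -0.26 to -0.14. Kcna5 (Kv1.5, known from smooth muscle) had 1.74, 1.84, 3.94 and 1.88 CPM in SAH and 1.18 to 1.91 CPM in control, and moved from 0.55 to 0.20. None of these genes passed the threshold with or without SAH mouse 3, and Kcnf1 did without SAH mouse 2 (adjusted p = 0.0708 by edgeR). Markers of mural cells, which include vascular smooth muscle, were higher in 4 of 6 genes, with summed levels of 169.6 to 233.4 CPM in SAH and 124.8 to 159.6 CPM in control, and SAH mouse 3 had the lowest of the SAH sums.

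**Figure D4:**
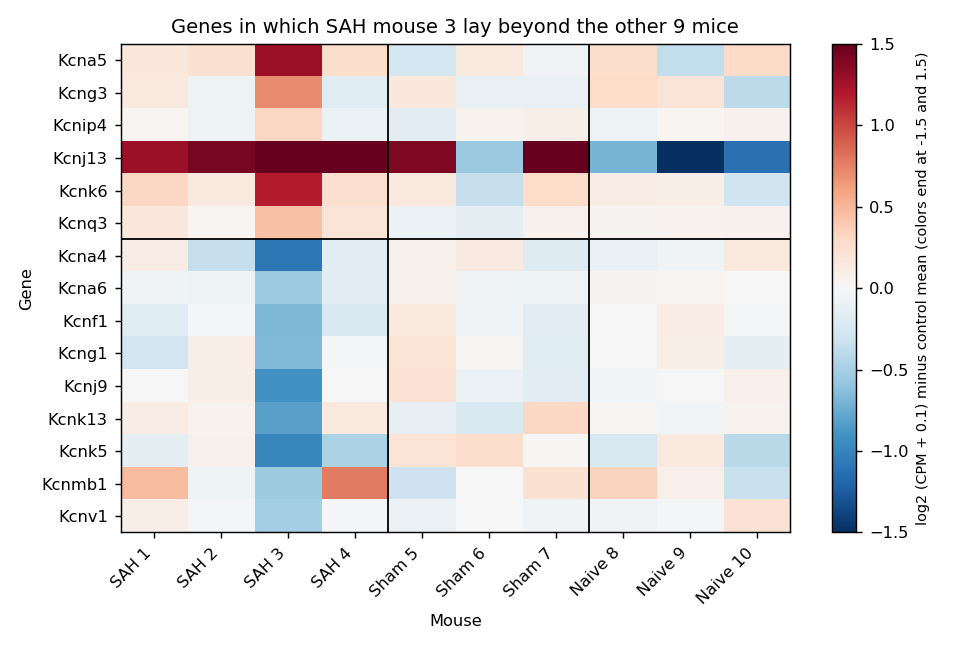
Log2 of CPM plus 0.1 minus the mean of the 6 control mice, in each mouse (columns), for the 15 genes (rows) in which SAH mouse 3 lay beyond the other 9 mice by at least 0.2, with red above and blue below the control mean. The upper 6 genes are highest and the lower 9 lowest in SAH mouse 3, and Kcnj13 also varies widely among the other mice.

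The ether-a-go-go family (Kcnh), which includes Kcnh2, the erg channel, had 8 of 8 genes tested, with log2 fold changes from -0.063 to 0.30 (Kcnh4, which had 0.47 with an interval of 0.11 to 0.82 without SAH mouse 3 and between 0.16 and 0.47 with any mouse left out) and a summed level of 146 to 150 TPM in SAH and 138 to 153 TPM in control. The highest of them in TPM, Kcnh3, had a log2 fold change of 0.038 (95% interval -0.053 to 0.13). The count tables place the exons of Kcnh8 on both strands, so that its value is uncertain. The 3 Kv4 genes (Kcnd) lay between 0.013 and 0.04, with summed levels of 150 to 162 TPM in SAH and 150 to 165 TPM in control. Kcnq5, a further Kv7 subunit of the hippocampus, had a log2 fold change of -0.034 (-0.16 to 0.093), and Kcnc4 of -0.0029 (-0.12 to 0.11). These families were each described without a test of the family, and the groups overlapped in the summed level of both Kcnh and Kcnd.

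Among auxiliary subunits of voltage-gated channels, 12 of 13 were tested and 0 passed the threshold, with 1 at an unadjusted p under 0.05, 0 called by DESeq2 and a median log2 fold change of 0.081 (0.034 without SAH mouse 3). The Kv1 subunit genes Kcnab1 and Kcnab2 both had log2 fold changes of 0.081, with intervals from -0.03 to 0.19 and from -0.027 to 0.19, and without SAH mouse 3 they had 0.036 and 0.033. The Kv4 subunit genes Kcnip2, Kcnip3 and Kcnip4 had log2 fold changes of 0.021, -0.06 and 0.05, and without SAH mouse 3 that of Kcnip4 was -0.043. Kcne1l, a small membrane-spanning subunit on the X chromosome, was the second gene with all SAH mice above all control mice. It had 4.59, 4.56, 5.15 and 6.24 CPM in SAH, 3.55, 3.90 and 4.47 CPM in Sham, and 3.72, 3.60 and 4.46 CPM in Naive mice, so the gap between the groups was small. Its log2 fold change of 0.38 (95% interval 0.12 to 0.64) had an adjusted p of 0.126 by edgeR and 0.103 by DESeq2, and of 0.089 by edgeR without SAH mouse 2.

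Among inward rectifiers, 13 of 15 were tested and 0 passed the threshold against the pooled control, with 1 at an unadjusted p under 0.05, 0 called by DESeq2 and a median log2 fold change of -0.038 (0.028 without SAH mouse 3). Kcnj10 had 245, 209, 214 and 260 CPM in SAH, 241, 222 and 242 CPM in Sham, and 235, 244 and 246 CPM in Naive mice. SAH mice lay on both sides of the control mice, with a log2 fold change of -0.038 (95% interval -0.16 to 0.089). Kcnj16 (Kir5.1), its partner subunit in astrocytes, had a log2 fold change of 0.05 (-0.089 to 0.19). In the same mice 4 of 5 reactive astrocyte markers were higher, with summed levels of 623.9 to 1432 CPM in SAH and 446.8 to 590.5 CPM in control, while 0 of 7 general astrocyte markers passed the threshold by edgeR, 2 had an unadjusted p under 0.05 and 1 was called by DESeq2 (5621 to 6431 CPM in SAH and 5772 to 6211 CPM in control). Oligodendrocytes also express Kcnj10, and their markers were lower in 7 of 7 genes as given above. The part of either cell type in the level of Kcnj10 was not tested.

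The G protein-gated rectifiers Kcnj3, Kcnj6 and Kcnj9, which carry the slow inhibitory current of metabotropic receptors, had log2 fold changes of 0.0083 (95% interval -0.079 to 0.10), 0.10 (-0.04 to 0.24) and -0.16 (-0.47 to 0.16). In Kcnj9, SAH mouse 3 had 57.2 CPM, the other SAH mice 107 to 115 CPM and the control mice 96.0 to 125 CPM, and leaving out SAH mouse 3 moved the log2 fold change to 0.028. Kcnj4 (Kir2.3) had a log2 fold change of -0.052 (-0.20 to 0.091). Kcnj2 (Kir2.1), known from endothelium and microglia, varied between 9.20 and 23.4 CPM in control and between 9.56 and 20.6 CPM in SAH, so that its interval reached from -0.55 to 0.49. Kcnj8 (Kir6.1), the ATP-sensitive channel of pericytes, had 2.32 to 3.76 CPM in SAH and 2.16 to 3.70 CPM in control, with a log2 fold change of -0.042 (-0.41 to 0.33). Kcnj12 (Kir2.2) was called lower without SAH mouse 1 only (adjusted p = 0.0784).

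Kcnj13 encodes Kir7.1, which in the brain is known from the epithelium of the choroid plexus, the tissue that secretes cerebrospinal fluid and lies against the hippocampus. Kcnj13 (chromosome 1, 89282859 to 89291304 in mm9, minus strand) had 2.22, 2.46, 7.33 and 6.08 CPM in SAH, 2.43, 0.551 and 5.71 CPM in Sham, and 0.489, 0.206 and 0.34 CPM in Naive mice. All SAH and all Sham mice lay above every Naive mouse, Sham mouse 6 only narrowly, and the SAH and Sham mice overlapped. Against the pooled control the log2 fold change was 1.45 (95% interval 0.011 to 2.89, adjusted p = 0.29 by edgeR), and it was 2.46 (adjusted p = 0.0387) without Sham mouse 7 and 1.14 (adjusted p = 0.531) without SAH mouse 3. In the fit of 3 groups, with the control taken as the average of Sham and Naive, Kcnj13 was called higher, at 2.14 (adjusted p = 0.0669).

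Kcne2, an auxiliary subunit that is also known from choroid plexus epithelium, had 0.677, 1.18, 2.53 and 5.20 CPM in SAH, 1.49, 0.0368 and 5.75 CPM in Sham, and 0.263, 0.206 and 0.17 CPM in Naive mice. The lowest of these values stands for 1 count in Sham mouse 6. The log2 fold change of Kcne2 against the pooled control was 0.86 (95% interval -1.02 to 2.73, adjusted p = 0.649 by edgeR), and it was 0.11 without SAH mouse 4 and 2.47 (adjusted p = 0.105) without Sham mouse 7. The summed level of 7 choroid plexus markers was 99.95, 213.5, 1222 and 859.1 CPM in SAH, 209.2, 56.84 and 824.3 CPM in Sham, and 67.36, 44.17 and 52.8 CPM in Naive mice, and 0 of the 7 markers passed the threshold against control by edgeR or DESeq2, with 1 at an unadjusted p under 0.05. SAH mice 3 and 4 and Sham mouse 7 were the 3 highest mice for Kcnj13 and for Kcne2, as they were for these markers. The part of the amount of choroid plexus tissue in the values of Kcnj13 and Kcne2 was not tested.

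Since Kcnj13 and Kcne2 were highest in the same 3 mice, the 250 bases before a start site of each are shown from the RefSeq promoter table (GRCm38.p6, another build than the count tables), at chr1:87394730-87394979 on the minus strand for Kcnj13 and at chr16:92292139-92292388 on the plus strand for the upstream start of Kcne2. Capitals mark TGACG, the core of the cyclic AMP response element (or CGTCA, its reverse complement), and TATAAA, the TATA box.
Kcnj13: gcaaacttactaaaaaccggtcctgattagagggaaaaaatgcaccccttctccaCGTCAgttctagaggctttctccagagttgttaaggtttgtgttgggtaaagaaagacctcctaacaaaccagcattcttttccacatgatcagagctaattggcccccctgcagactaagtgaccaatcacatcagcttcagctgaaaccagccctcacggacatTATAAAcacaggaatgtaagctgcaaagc
Kcne2: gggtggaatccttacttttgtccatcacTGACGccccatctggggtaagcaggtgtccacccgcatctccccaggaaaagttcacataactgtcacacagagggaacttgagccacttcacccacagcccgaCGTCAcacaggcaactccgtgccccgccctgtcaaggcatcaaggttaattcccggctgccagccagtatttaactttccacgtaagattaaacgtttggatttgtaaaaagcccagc
Both motifs were searched on both strands, and so was TAATCC, the site read by OTX factors, which overlaps neither. TGACG was found 1 time in the Kcnj13 window and 2 times in the Kcne2 window, TATAAA was found 1 time in that of Kcnj13, and TAATCC was found 0 times in either window. The window of the downstream start of Kcne2, at chr16:92295366-92295615, held 0 matches of each motif. Over all 32851 promoters of the same length TGACG was present in 17.8%, TATAAA in 12.4% and TAATCC in 6.25%, and over the 97 promoters that the table held for 72 of the 98 genes they were present in 16.5%, 3.09% and 2.06%. A match describes the letters and is not a site of binding.

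**Figure D5:**
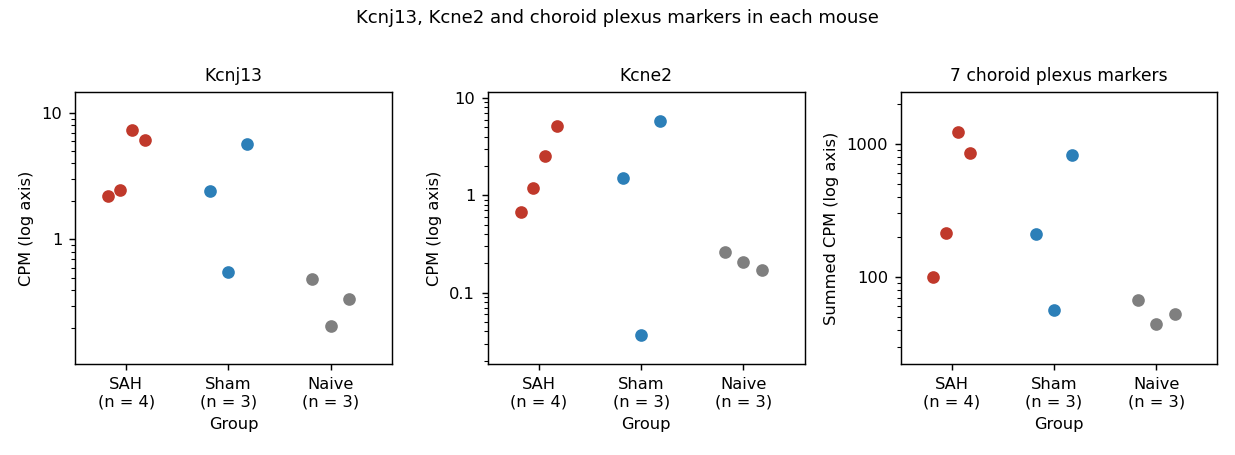
CPM of Kcnj13 and Kcne2 and the summed CPM of 7 choroid plexus markers in each mouse (log axes) for SAH (n = 4), Sham (n = 3) and Naive (n = 3). Naive mice lie near the lower end of all 3 panels with Sham mouse 6, and SAH mice 3 and 4 and Sham mouse 7 are the highest.

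Among two-pore channels, 10 of 14 were tested and 0 passed the threshold, with 2 at an unadjusted p under 0.05, 0 called by DESeq2 and a median log2 fold change of -0.038 (0.0046 without SAH mouse 3). Kcnk1, Kcnk2, Kcnk9 and Kcnk4, which give neurons and astrocytes their leak currents, had log2 fold changes of 0.071, 0.10, 0.10 and -0.033, with all 4 intervals between -0.21 and 0.31. Kcnk6 and Kcnk13 are known from microglia. Kcnk6 had 4.45, 3.97, 8.18 and 4.28 CPM in SAH and 2.79 to 4.34 CPM in control, and its log2 fold change of 0.52 (adjusted p = 0.211 by edgeR) became 0.23 without SAH mouse 3. Kcnk13 had 7.25, 6.99, 3.79 and 7.47 CPM in SAH and 5.74 to 8.37 CPM in control, and its log2 fold change of -0.078 became 0.10. Kcnk12, named after its values were seen, encodes a subunit that yields little current by itself. It had 7.54, 8.13, 7.12 and 6.91 CPM in SAH and 7.51 to 9.19 CPM in control, with a log2 fold change of -0.22 (95% interval -0.40 to -0.043, adjusted p = 0.192 by edgeR). Microglia markers were higher in 3 of 7 genes, with summed levels of 406.6 to 502.9 CPM in SAH and 370.5 to 420.5 CPM in control.

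Among calcium- or sodium-activated genes, 10 of 12 were tested and 0 passed the threshold by edgeR, with 0 at an unadjusted p under 0.05 and 0 called by DESeq2, and the median log2 fold change was 0.003 (-0.0074 without SAH mouse 3). The BK genes Kcnma1 and Kcnmb4 had log2 fold changes of 0.05 (95% interval -0.044 to 0.14) and -0.018 (-0.12 to 0.081). Kcnn2 had a log2 fold change of 0.048 (-0.10 to 0.19) and Kcnt1, a sodium-activated channel, of -0.082 (-0.24 to 0.077). Kcnmb1, the BK subunit of smooth muscle, had 0.909 to 2.40 CPM in SAH and 1.06 to 1.73 CPM in control, and its interval reached from -0.29 to 0.78. SAH mouse 3 had the lowest of these SAH values, and the log2 fold change of Kcnmb1 moved from 0.25 to 0.43 (-0.048 to 0.91) without it. Of the 4 noncoding transcripts 3 were tested and 0 passed the threshold of either tool, with 1 at an unadjusted p under 0.05. Kcnq1ot1, the imprinted transcript antisense to Kcnq1, had a log2 fold change of -0.24 (95% interval -0.46 to -0.0074, adjusted p = 0.278 by edgeR).

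The second comparison set SAH against Sham mice, which differ in the hemorrhage but share the operation. Of the 85 genes, 0 were higher and 0 were lower by edgeR, where 0.529% of all tested genes were higher and 0.192% were lower. At an unadjusted p under 0.05 there were 7 genes (8.24%, against 9.69% of all genes), and DESeq2 called Kcns2 and Kcng4, 2 of 86 (2.33%, against 1.91% of all genes). Kcns2 had a log2 fold change of 0.28 (95% interval 0.12 to 0.44, adjusted p = 0.147 by edgeR and 0.04 by DESeq2). It passed the threshold of edgeR without SAH mouse 2 (adjusted p = 0.0894) and without SAH mouse 3 (adjusted p = 0.0919). Kcng4 had a log2 fold change of -0.47 (-0.71 to -0.22, adjusted p = 0.114 by edgeR and 0.0431 by DESeq2). Kcnj13 had a log2 fold change of 0.64 (-0.59 to 1.87), and Kcne2 of 0.0036 (-1.74 to 1.74).

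The third comparison set SAH against Naive mice, which differ in the hemorrhage and the operation. By edgeR 2 of 85 genes were higher, namely Kcns2 and Kcnj13 (2.35%, against 2.03% of all tested genes), and 0 were lower, against 0.965%. At an unadjusted p under 0.05 there were 10 genes (11.8%, against 14.8%), and DESeq2 called Kcns2, Kcnj13 and Kcne2 (3.49%, against 4.56%). With only the SAH and Naive mice in the fit, edgeR also called these 3 genes. Kcns2 rose by 0.34 in log2 units (95% interval 0.18 to 0.50, adjusted p = 0.0345 by edgeR), and the call was lost without Naive mouse 8 (adjusted p = 0.199) and without Naive mouse 9 (adjusted p = 0.158). Kcnj13 rose by 3.64 (1.93 to 5.34, adjusted p = 0.0363), and its call was lost without Naive mouse 8, 9 or 10 (adjusted p between 0.129 and 0.187). Kcng4 had a log2 fold change of -0.25 with an interval of -0.50 to -0.0014 and an adjusted p of 0.334 by edgeR. This comparison shares its SAH mice with that against Sham, and the controls of both were pooled in the first, so the calls of Kcns2 are not independent of each other.

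The last comparison set Sham against Naive mice, which differ in the operation with its anesthesia. By edgeR 0 of 85 genes were higher (0.00661% of all tested genes) and 0 were lower (0%). At an unadjusted p under 0.05 there were 4 genes, Kcnj13, Kcne2, Kcnj8 and the noncoding Kcnd3os (4.71%, against 2.02% of all genes), and DESeq2 called 0 of 95 (0.0102% of all genes). Kcns2 had a log2 fold change of 0.06 (95% interval -0.11 to 0.23) and Kcng4 of 0.22 (-0.043 to 0.48). Kcnj13 had a log2 fold change of 2.99 (1.17 to 4.81, adjusted p = 1) and Kcne2 of 3.45 (0.78 to 6.13, adjusted p = 1). Without Sham mouse 7 that of Kcnj13 was 2.02, and with a mouse left out in turn that of Kcne2 lay between 1.75 and 4.04.

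The partners of potassium channels and the other carriers of potassium were followed in a list of 35 genes, of which 33 were tested in SAH against control. In these, 2 were higher (3.13% of all tested genes were), 1 was lower (1.54%), and the median log2 fold change was -0.014 (-0.026 without SAH mouse 3). Slc12a7, a potassium-chloride cotransporter, rose by 0.36 (0.15 to 0.57, adjusted p = 0.0765), and Slc12a2, the cotransporter that imports sodium, potassium and chloride, fell by 0.20 (interval -0.33 to -0.078, adjusted p = 0.089). The calls of Slc12a7 and Slc12a2 each passed the threshold in only 2 of 10 fits with a mouse left out, and without SAH mouse 3 that of Slc12a7 was lost. The neuronal cotransporter Slc12a5 had a log2 fold change of 0.0038 (-0.10 to 0.11).

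Of the 8 genes of the Kv1 complex, 0 passed the threshold by edgeR, 3 had an unadjusted p under 0.05 (17.0% of all tested genes did) and 1 was called by DESeq2 (6.42% of all genes were). Their summed level was 2269 to 2415 CPM in SAH and 2446 to 2546 CPM in control, so that every SAH mouse lay below every control mouse, as in 2.37% of all genes taken singly, and the median log2 fold change was -0.053. Split after the values were seen, the sum of the 2 scaffolds Dlg4 and Dlg2 did not overlap between the groups, at 1218 to 1347 CPM in SAH and 1357 to 1414 CPM in control, while the other 6 genes summed to 1051 to 1114 CPM and 1071 to 1132 CPM and overlapped. The scaffold Dlg4, a postsynaptic protein, had a log2 fold change of -0.11 (95% interval -0.19 to -0.032, adjusted p = 0.138 by edgeR), the adhesion protein Cntn2 of -0.13 (-0.24 to -0.035, adjusted p = 0.157) and the scaffold Dlg2 of -0.087 (-0.17 to -0.0087, adjusted p = 0.245). With a mouse left out in turn, Dlg4 passed the threshold without SAH mouse 1 and without SAH mouse 2, and Cntn2 without SAH mouse 4. The ligand Lgi1 had -0.011, and the adhesion protein Cntnap2 had 0.048 with all mice and -0.042 without SAH mouse 3. The Kv4 auxiliary genes Dpp6 and Dpp10 had log2 fold changes of 0.091 and -0.15 (0.026 and -0.086 without SAH mouse 3), and the Kv2 partner Amigo1 of -0.13 (-0.048 without it), with 0 of 2 and 0 of 3 genes past the threshold of either tool or at an unadjusted p under 0.05. The sulfonylurea receptors Abcc8 and Abcc9, which complete the ATP-sensitive channels, differed between SAH and control by 0.052 and 0.37 in log2 units, neither past the threshold (adjusted p = 0.737 and 0.299 by edgeR), and by -0.011 and 0.23 without SAH mouse 3. Abcc9 passed the threshold without SAH mouse 2 (adjusted p = 0.084). Among the genes of the astrocyte endfoot, Aqp4, a water channel found beside Kir4.1, had a log2 fold change of 0.21 (0.027 to 0.39, adjusted p = 0.226 by edgeR), which lay between 0.12 and 0.26 with a mouse left out in turn, and of the 4 genes there 0 passed the threshold of either tool and 1 had an unadjusted p under 0.05. Of the BK gamma subunits 2 of 4 were tested, Lrrc38 with a log2 fold change of -0.32 and Lrrc55 with -0.23, the intervals of which reached from -0.93 to 0.30 and from -0.59 to 0.13. Without SAH mouse 3 these changes were -0.12 and -0.04. The anchoring genes Ank3 and Akap5 had log2 fold changes of -0.074 and -0.046 (-0.083 and -0.011 without SAH mouse 3).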

How the data were processed

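RNA-seq counts of 10 mice (4 SAH, 3 Sham, 3 Naive) were analysed. The deposited values are whole-number counts of read pairs per gene name, which the authors made by aligning with STAR to mm9 and counting exons with featureCounts 1.6.2 in the sense direction, without normalization. Pairs on more than 1 place or gene were not counted, so genes that share sequence may be undercounted. In the count tables the exons of Kcnh8 lie on both strands, which limits its value. Exon ends of 94 members were compared with the mm9 reference annotation (GENCODE vM1), and 83.9% of 701 exons had both ends equal.

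Tests were run in R 4.3.3 with edgeR 4.0.16 (TMM, filterByExpr with a minimum count of 10 and a minimum total of 15, quasi-likelihood test). P-values were adjusted by Benjamini-Hochberg over all tested genes, and the threshold was 0.10. SAH was compared with Sham and Naive pooled in a fit of 2 groups. The other 3 comparisons came from a fit of 3 groups. Standard errors and 95% intervals were taken from the same test. The test was also run on simulated counts drawn from the mean levels and spreads of these data. Those counts held no mouse that stood apart as SAH mouse 3 did, so the run cannot show how the intervals behave with such a mouse. TPM was computed from the counts and the exon length in the files. P-values set a difference against the spread between mice, which in the pooled control includes any difference between Sham and Naive mice. A count of 0 allows 3 counts, a limit that covers counting error only.

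Alternatives were DESeq2 1.42.0, which the study used, other normalizations and filters, a threshold of 0.05, a 3-group model whose control is the average of Sham and Naive, only the mice compared, and each mouse left out in turn. Leaving mice out for the partner genes was added after seeing the data. The members, classes, partner and marker lists were chosen with earlier results of these data known. Genes named by rule were those past the threshold in any comparison, the 4 of highest mean TPM in each class, and genes known as marks of a cell type or current. Kcnb2, Kcns1, Kcns3, Kcne1l, Kcna4, Kcna6, Kcnf1, Kcng1, Kcng3, Kcnk5, Kcnv1, Kcnk12, Kcnc4, Kcnd3os, Kcnh2, Kcnh3, Kcnh4, Kcnj12, Kcnq5, Kcnq1ot1 and the genes under the filter were named after their values were seen. Some genes and sequences are not reported here. Filter sequences were read from NCBIM37 and checked against the translated transcripts. Python 3.11.15 with pandas 2.3.3, numpy 2.4.6 and matplotlib 3.10.9 was used.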

Additional observations from a re-analysis of the deposited data

Results flagged for a closer look

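In 8 of 70 sets of 4 SAH or 6 control mice examined for named genes, the highest or lowest mouse stood apart from the rest by a Dixon test at the 95% level, which by chance flags about 1 set in 20. In 5 of these it was SAH mouse 3 among the SAH mice, with 57.2 CPM in Kcnj9, 151 CPM in Kcnma1, 8.18 CPM in Kcnk6, 3.79 CPM in Kcnk13 and 3.94 CPM in Kcna5. Among the control mice, Sham mouse 5 was lowest with 138 CPM in Kcnd2, Sham mouse 7 was highest with 5.75 CPM in Kcne2, and Naive mouse 10 was highest with 23.4 CPM in Kcnj2.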

How the results depend on the processing

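Against the pooled control 1 gene was higher and 1 lower. DESeq2 found 2 higher, the 3-group model whose control averages Sham and Naive found 2 higher, and library size alone and an adjusted p under 0.05 each found 0 lower. With each mouse left out in turn there were between 1 and 3 higher and between 0 and 2 lower. Kcns2 was called in every one of these settings. Against Sham, DESeq2 found 1 higher and 1 lower where edgeR found 0, and with a mouse left out 0 to 1 were higher. Against Naive there were 0 to 2 higher with a mouse left out, against 2 with all mice and 3 by DESeq2 or with only the mice of those groups. Of the partner genes, 1 to 3 were higher (2 with all mice) and 0 to 1 lower (1 with all mice) with a mouse left out. For single genes, of 689 values over 44 results, 651 stayed on their side of the threshold and, if not called, within 1 standard error of the reported value, 15 moved further, 15 lost and 8 gained a call. Among values not called, 33 changed sign, 9 of them without SAH mouse 3, and 0 called values did. By CPM in place of TPM, 2 of the 4 highest voltage-gated pore genes and 3 of the 4 highest two-pore genes stayed in their lists. Replicate numbers are not shared between groups. No paired analysis was possible because each mouse number occurs in 1 group only. Where a call changed, the cause was not tested. The groups of 3 and 4 mice limit what could be detected in genes of low level.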
